A study of Mus musculus with 2 samples.

Results

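The regions described here are the promoters of 4505 intergenic long noncoding RNA genes in the mouse thymus, read from maps of open chromatin. They were chosen by a rule on the GENCODE M21 annotation of the mm10 mouse genome that used none of the measurements. The rule was set with earlier results of these data known. Every autosomal gene of type lincRNA was taken whose 5′ end lay more than 5 kb from each annotated start of a protein-coding gene, and the region was the 1 kb on either side of that 5′ end (2001 bp). The rule took 4505 of the 5209 autosomal lincRNA genes and of the 51229 autosomal genes of any type. The other 704 lincRNA genes started closer to a protein-coding gene and served for comparison, as did the 20807 protein-coding genes.

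Chromatin was mapped by DNase-seq, in which the enzyme DNase I cuts nuclear DNA where it is not wrapped on nucleosomes. The tissue was thymus from 2 female B6CASTF1/J mice aged 36 days, first-generation hybrids of C57BL/6J and CAST/EiJ, with 1 library for each animal. Both libraries belong to the same untreated group, called mouse 1 and mouse 2 after their replicate numbers (the labels name separate animals under a shared donor entry), so no condition was compared and no difference was tested. Whole thymus holds mostly immature T cells, and in bulk tissue a peak carried by few cells and a weak peak carried by many cannot be told apart. Reads of the CAST/EiJ chromosomes were reported on the reference of the other parent, and the effect of that on the lists was not tested.

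Long noncoding RNAs are transcripts that encode no protein. Many are made by RNA polymerase II from ordinary promoters and are spliced, and some have known work: Neat1 builds nuclear paraspeckles, Mir17hg and Mir155hg are the precursors of microRNAs, and Meg3 and H19 are imprinted genes of the embryo. Others are transcribed at or near enhancers of neighbouring genes, and for most intergenic lincRNA genes no function is known. Promoters of widely expressed genes tend to be rich in the dinucleotide CpG and open in most tissues, whereas enhancers and tissue-restricted promoters tend to be poor in it. In thymocytes the factors TCF-1, RUNX1, the E proteins and ETS1 bind many such regulatory elements, and CTCF binds at insulators and loop anchors.

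The sequences below are examples of the elements found in these regions, and not all of them lie at the 5′ end itself. Each is the stretch shared by the strongest peak of the 2 mice in that region, taken from the RefSeq copy of GRCm38 (mm10), on the strand of the gene, with capitals marking bases inside a footprint of both mice. A footprint is a short stretch within open chromatin that is cut less than its surroundings, as a bound protein leaves it. The CpG-rich elements come before the CpG-poor ones. Malat1 lies at chr19:5803561-5803680 (minus strand), Snhg6 at chr1:9944061-9944260 (minus), Dubr at chr16:50732701-50732900 (minus) and Mir155hg at chr16:84703221-84703480 (plus). Another CpG-rich element, 4632415L05Rik at chr3:19894641-19894860 (plus), is the strongest one with a match to the CTCF motif inside footprints of both mice, and the strongest with a RUNX match there. The remaining elements are CpG-poor. Gm15340 at chr16:95900181-95900460 (plus) is the strongest with a TCF/LEF match in footprints of both mice, Gm11579 at chr1:60781781-60781960 (minus) lies near Cd28, and Gm26551 at chr11:52268621-52268840 (minus) lies near Tcf7. The strongest Malat1 peak is centred 949 bp upstream of the gene's 5′ end in both mice. The strongest Gm26551 peaks are centred 803 bp (mouse 1) and 783 bp (mouse 2) downstream of its 5′ end.
Malat1: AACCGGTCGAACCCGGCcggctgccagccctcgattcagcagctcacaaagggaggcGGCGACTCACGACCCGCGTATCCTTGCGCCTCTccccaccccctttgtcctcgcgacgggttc
Snhg6: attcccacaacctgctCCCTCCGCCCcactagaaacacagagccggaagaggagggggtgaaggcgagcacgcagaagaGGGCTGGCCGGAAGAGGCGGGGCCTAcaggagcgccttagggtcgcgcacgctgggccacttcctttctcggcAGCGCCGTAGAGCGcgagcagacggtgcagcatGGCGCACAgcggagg
Dubr: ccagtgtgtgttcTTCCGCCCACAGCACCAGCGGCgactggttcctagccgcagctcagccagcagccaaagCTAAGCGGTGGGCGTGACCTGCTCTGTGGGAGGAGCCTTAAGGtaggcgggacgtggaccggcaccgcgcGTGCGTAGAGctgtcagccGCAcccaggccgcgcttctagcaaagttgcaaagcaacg
Mir155hg: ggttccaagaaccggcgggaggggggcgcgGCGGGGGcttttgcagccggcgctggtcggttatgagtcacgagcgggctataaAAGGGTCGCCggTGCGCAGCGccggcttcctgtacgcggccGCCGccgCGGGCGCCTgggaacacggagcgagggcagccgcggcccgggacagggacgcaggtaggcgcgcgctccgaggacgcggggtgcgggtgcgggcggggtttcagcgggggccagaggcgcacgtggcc
4632415L05Rik: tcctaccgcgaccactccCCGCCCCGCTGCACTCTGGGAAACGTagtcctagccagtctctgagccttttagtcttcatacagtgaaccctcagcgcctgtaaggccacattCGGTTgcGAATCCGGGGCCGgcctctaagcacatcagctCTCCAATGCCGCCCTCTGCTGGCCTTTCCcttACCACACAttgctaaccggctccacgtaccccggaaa
Gm15340: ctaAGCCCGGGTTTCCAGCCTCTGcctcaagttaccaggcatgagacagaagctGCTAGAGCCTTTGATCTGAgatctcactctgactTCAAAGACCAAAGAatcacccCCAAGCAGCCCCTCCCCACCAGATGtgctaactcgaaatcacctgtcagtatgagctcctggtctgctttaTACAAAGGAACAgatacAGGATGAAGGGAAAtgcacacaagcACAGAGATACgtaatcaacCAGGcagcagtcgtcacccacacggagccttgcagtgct
Gm11579: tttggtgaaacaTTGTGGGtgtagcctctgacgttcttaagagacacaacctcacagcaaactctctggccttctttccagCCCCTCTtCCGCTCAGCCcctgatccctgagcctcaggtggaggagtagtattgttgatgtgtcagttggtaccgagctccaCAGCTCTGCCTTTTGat
Gm26551: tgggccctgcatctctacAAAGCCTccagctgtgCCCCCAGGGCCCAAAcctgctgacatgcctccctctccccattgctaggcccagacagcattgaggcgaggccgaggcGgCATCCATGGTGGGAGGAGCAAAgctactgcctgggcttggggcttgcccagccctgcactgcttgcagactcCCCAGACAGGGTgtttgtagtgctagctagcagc

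The contrast between the groups is in their CpG. The Mir155hg stretch held 40 CpG dinucleotides in 260 bases and the Snhg6 stretch 18 in 200, whereas Gm11579 held 3 in 180 and Gm26551 held 3 in 220. In Snhg6 the capitals CCCTCCGCCC hold a GC box on the opposite strand and GGGCTGGCCGGAAGAGGCGGGGCCTA hold the ETS letters. In 4632415L05Rik the capitals CTCCAATGCCGCCCTCTGCTGGCCTTTCC hold a CCAAT box and the CTCF match, and in Gm15340 the capitals GCTAGAGCCTTTGATCTGA hold the TCF/LEF letters. The strongest peaks of 4632415L05Rik had signals, a measure of height explained below, of 7.72 in mouse 1 and 16.2 in mouse 2, and those of Gm15340 11.9 and 9.89. A match of letters is a description and does not show which protein was bound.

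Most intergenic lincRNA promoters were closed in the thymus. A peak lay in the region of 536 members in mouse 1 (11.9%) and of 615 in mouse 2 (13.7%), a mean of 12.8% ± 1.24 (SD, n = 2). The background was higher: 28.9% of all autosomal genes and 53.4% of protein-coding genes had a peak in mouse 1, and 32.7% and 59.3% had one in mouse 2. In both mice together 501 members were open (11.1%), beside 28.3% of all autosomal genes and 52.9% of protein-coding genes. The lincRNA genes that start within 5 kb of a protein-coding gene were open in both mice in 46.3% of cases, and antisense genes in 28.1%. A peak was absent from both mice at 3855 members (85.6%). With only the stronger 50% of the peaks of each library, 280 members were open in both.

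A looser measure added members in each mouse. The cut-rate lists record stretches where the local rate of cuts was above background at an FDR under 0.05, called runs here. A run reached into 751 member regions in mouse 1 and 931 in mouse 2. Of these, 215 and 316 had a run but no peak. In both mice 690 members held a run (15.3%), beside 32.6% of all autosomal genes and 57.9% of protein-coding genes. Neither a peak nor a run was present in either mouse at 3513 members (78.0%).

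The threshold of the rule cut through a continuous range. Members 5 to 6 kb from a protein-coding start were open in both mice in 11 of 57 cases (19.3%), and lincRNA genes 4 to 5 kb away, just outside the rule, in 17 of 79 (21.5%). Members also share sequence: 361 regions (8.01%) held the start of another annotated gene, and those were open in both mice in 20.5% of cases, against 10.3% of the 4144 members alone in their region. The 501 open members held 483 distinct strongest peaks in mouse 1, because neighbouring or divergent genes used the same peak.

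Peaks were more frequent next to the annotated 5′ ends than a few kb away. In 500 bp bins, the bin just upstream of the 5′ end held a peak at 7.44% of members in mouse 1 and 8.61% in mouse 2, and the bin just downstream at 6.99% and 8.04%. The 12 bins lying 2 to 5 kb away held one at 1.64% to 2.40% of members in mouse 1 and at 2.06% to 2.93% in mouse 2. At the 3′ ends of the 2746 members longer than 5 kb that also end far from protein-coding starts, the window of 1 kb on either side held a peak in 3.13% and 4.81% of cases, against 10.5% and 11.6% at the 5′ ends of the same genes. The 5′ end was the more often open end in both animals. In protein-coding genes the shares were 57.6% and 63.9% at the 5′ end and 8.46% and 11.02% at the 3′ end.

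**Figure D1:**
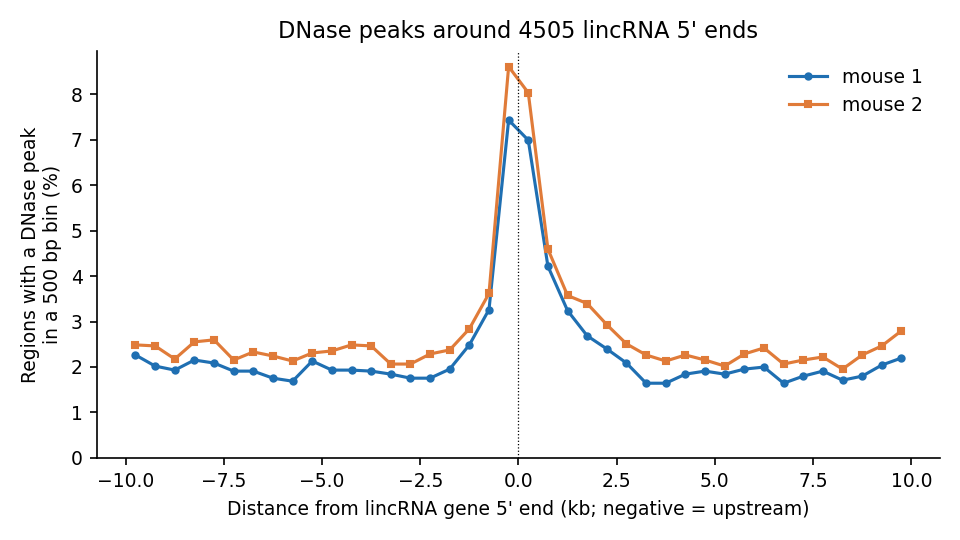
Share of the 4505 lincRNA 5′ ends with a DNase peak in each 500 bp bin (y axis, percent) by distance from the 5′ end (x axis, kb, negative upstream); circles are mouse 1 and squares mouse 2. Both mice peak in the bins next to the 5′ end, at 7.44% and 8.61% just upstream.

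Taken over all CpG contents together, open member promoters were weaker and less precisely placed than open protein-coding promoters. Signals within classes of CpG content are given below. Signal is the height that the authors give each peak, scaled for depth, and the strongest peak of the region stood for the promoter. Its median over open members was 1.40 in mouse 1 and 1.96 in mouse 2, against 5.02 and 10.7 over open protein-coding promoters. The mean of the member medians was 1.68 ± 0.401 (SD, n = 2), and 1.03 with the longer, looser peak list of each library. In mouse 1 82 of 536 open members lay above the protein-coding median, and in mouse 2 54 of 615 did. The centre of the strongest peak lay a median of 281.5 bp from the 5′ end in mouse 1 and 277 bp in mouse 2, against 83 and 75 bp for protein-coding genes. Accordingly 37.5% and 38.9% of open members had that centre within 150 bp of the 5′ end, against 67.1% and 67.59%. Run bases at open members had a median of 543 and 516 of the 2001 bp, against 1290 and 1144. In mouse 1, 16615 peaks shared with mouse 2 lay more than 5 kb from every annotated start, with a median signal of 1.14 (quartiles 0.715 and 2.08). Members open in both mice had a mouse 1 median of 1.55, nearer to that value than to the 5.11 of protein-coding promoters open in both. The upper quartile over all open members in mouse 1 was higher, at 3.23. The distal value covers every peak, whereas the member value takes the strongest peak of each region.

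The mice called nearly the same members at high signal and differed at low signal. Of the members open in mouse 1, 93.5% were open in mouse 2, and of those open in mouse 2, 81.5% were open in mouse 1. These shares were 98.0% and 86.8% over all autosomal genes, and 99.1% and 89.2% over protein-coding genes. At members open in both, the strongest peaks of the 2 mice overlapped in 477 of 501 cases (95.2%). At protein-coding promoters open in both the share was also 95.2%. Members open in both had a median signal of 1.55 in mouse 1 and 2.69 in mouse 2. The 35 members open in mouse 1 only had a median signal of 0.581, and 28 of them held a run in mouse 2. The 114 open in mouse 2 only had a median signal of 0.688, and 71 of them held a run in mouse 1. The strongest of those in mouse 1 was Gm31897 (chr7:127287729-127290619, 8.53 kb from Itgal), with 2.41 in mouse 1 and a run of 119 bases but no peak in mouse 2. It was followed by 2310031A07Rik (1.57), Gm49735 (1.37), Gm39556 (1.19) and 4930597A21Rik (1.10). The strongest in mouse 2 was AC091309.2 (chr17:83998554-84013408), with 3.69 in mouse 2 and 202 run bases but no peak in mouse 1. It was followed by AC141471.1 (2.96), 5830405F06Rik (1.64), Gm12524 (1.496) and Gm44202 (1.47).

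Signal was higher in mouse 2 at most open members. Over the 501 members open in both, the median log2 ratio of mouse 2 over mouse 1 was 0.65 (SD 0.74 across members), and 411 of 501 were higher in mouse 2. Over protein-coding promoters the median was 1.28, with 97.3% higher in mouse 2. The ratio moved with base composition: in 5 equal groups of open members, from the GC-poorest to the GC-richest, it was 0.19, 0.44, 0.52, 0.79 and 1.39, and among protein-coding promoters it ran from 1.01 to 1.47. GC content, library and animal move together here with 1 library for each mouse, and their parts were not tested. Levels are given for each mouse for that reason.

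All members listed as widely expressed lincRNAs had an open region. Of a list of 32 genes, 7 were members, and all 7 were open in both mice. Beside them stand 11.1% of all members and 25.3% of the 79 members with a given name. The regions of Neat1, Snhg12, Malat1 and Lncpint hold starts of 3, 2, 1 and 1 other genes. Over all members, regions with another start were open in both mice in 20.5% of cases. Neither this list nor those below were matched to all members in CpG content, and all were chosen with earlier results of these data known. Malat1 (chr19:5795690-5802672), an abundant nuclear RNA, had signals of 13.8 and 41.2 in mouse 1 and mouse 2, with the strongest peak 949 bp upstream of the gene's 5′ end. Neat1 (chr19:5824708-5845478), the scaffold of paraspeckles, had 6.59 and 19.1. Snhg6, Snhg12 and Snhg20 host small nucleolar RNAs in their introns. Snhg6 (chr1:9941959-9944118) had 6.73 and 15.3, Snhg12 (chr4:132308623-132311024) 5.04 and 10.7, and Snhg20 (chr11:117076008-117078955) 3.03 and 6.22. The Snhg20 peaks were centred 753 bp (mouse 1) and 763 bp (mouse 2) downstream of its 5′ end. The lowest were 2900097C17Rik (chr2:156388065-156392979), also called Norad, a regulator of Pumilio proteins, with 1.56 and 4.38, and Lncpint (chr6:31082565-31220488), a target of p53, with 1.40 and 2.39. Within this list the range was wide, and Lncpint stood at the median of all open members in mouse 1.

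MicroRNA host genes and 2 related lincRNAs were open in both mice in 4 of 8 cases, beside 11.1% of all members. Mir17hg (chr14:115042879-115046727), source of the miR-17-92 cluster that is active in lymphocytes, had 2.21 and 7.50, and Mir155hg (chr16:84703167-84715245), which carries miR-155 of activated lymphocytes, had 1.14 and 3.53. Pvt1 (chr15:62037986-62378096), downstream of Myc, had 0.759 and 2.20, and Lockd (chr6:134929092-134956798), downstream of the cell-cycle inhibitor gene Cdkn1b, had 3.83 and 5.11. Mir124-2hg, which hosts a neural microRNA, had no peak and no run in either mouse, and Mir124a-1hg had no peak and 304 run bases in mouse 2 only. Mir9-3hg had a peak of 0.695 in mouse 2 only, and Mir670hg had neither peak nor run.

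A list meant for immune lincRNAs, not all of which have an established immune role, was open in both mice in 7 of 10 cases, beside 11.1% of all members. Dubr (chr16:50719294-50732773), a lincRNA studied in muscle precursors, had 4.63 and 16.5, the highest of the list in mouse 2. Mirt1 (chr19:53443230-53464796) was the highest in mouse 1, with 6.22 and 5.73, Gm26532, whose region holds the starts of 4 other genes, 3.42 and 4.58, and 5830416I19Rik 1.68 and 1.91. Gm19585 had 0.919 and 1.02. Ifngas1 (chr10:118502035-118556525), which neighbours the interferon gamma gene and is known from effector T cells, had 0.683 and 0.463, and Gm2682 0.523 and 0.610; both lie under the open-member medians. Ptgs2os2, the lincRNA next to Ptgs2 known from stimulated macrophages, had 0.383 in mouse 2 only. Gm14005 (Morrbid), known from short-lived myeloid cells, had no peak and no run, and Trp53cor1 (lincRNA-p21) had no peak and 330 run bases in mouse 2.

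Of 13 developmental and imprinted lincRNAs among the members, 10 had no peak in either mouse, a share not above the 85.6% of all members. They were Bvht of the heart lineage, Halr1 and Hotair of the Hox clusters, Lncbate1 of brown fat, the imprinted Meg3 and Mirg, Miat and Rmst of the nervous system, and Platr4 and Platr27 of embryonic stem cells. All of these had no run either, except Bvht with 14 and 19 run bases. H19 had a peak of 0.907 in mouse 2 only. Lncenc1 and Platr22, both known from embryonic stem cells, were open in both mice, at 2.32 and 3.49 and at 2.46 and 3.02. In each the peak was centred over 1000 bp from the 5′ end (1041 bp downstream in Lncenc1, and 1050 and 1090 bp upstream in Platr22) and only its edge fell inside the region.

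**Figure D2:**
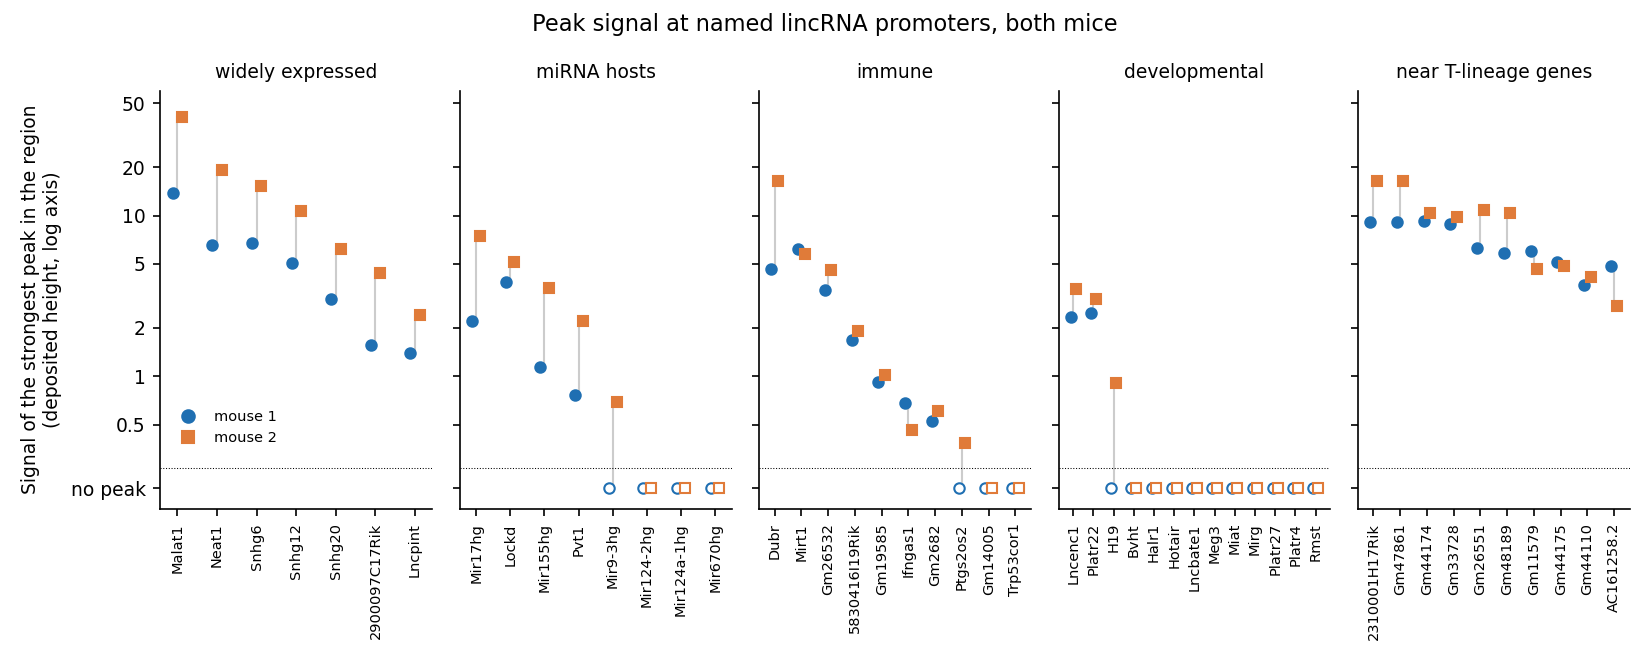
Signal of the strongest peak in the region (y axis, deposited height on a log axis) for members of the 4 name lists and the 10 strongest open members near T-lineage genes; circles are mouse 1, squares mouse 2, and open symbols on the bottom line mark no peak. All 7 widely expressed lincRNAs have a peak in both mice, beside 11.1% of all members. Of 13 developmental ones 10 have none, beside 85.6% of all members.

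Among all 4505 members, the 10 strongest promoters by the mean signal of both mice were mostly genes with clone or model names. The order differs in each mouse alone, and Gm11527, for example, stood above Malat1 in mouse 1 and below it in mouse 2. 1700096K18Rik (chr5:25530013-25531466) had 24.9 in mouse 1 and 51.3 in mouse 2. Gm33195 (chr13:43864669-43868589, 79.5 kb from Cd83) had 20.3 and 48.4, 6720427I07Rik 17.95 and 41.7, Tmem250-ps 15.4 and 44.1, and Gm20732 13.8 and 42.0. Malat1 was next, followed by 4930412M03Rik (14.2 and 37.1), Gm11527 (20.2 and 30.2) and Gm2885 (14.6 and 35.5). Gm42418 (chr17:39846958-39848788) ranked among them with 16.4 and 45.3, but it lies within the 45S ribosomal RNA unit, which is present in many copies that can share reads, and its region held only 140 run bases in each mouse. Its partner on the other strand, AY036118, starts 1077 bp away and had no peak or run, although it had the highest CpG content of all closed members.

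Several strong members were pairs that start toward or away from each other over the same peak. Gm20109 and E230001N04Rik (chr17, near Fkbp5) shared a strongest peak of 10.7 in mouse 1 and 29.6 in mouse 2, and Gm47861 and 2310001H17Rik (chr6, near Cd69) one of 9.12 and 16.3. By footprints, Gm6410 (chr8:4678462-4688494) stood first with 34 in mouse 1 and 24 in mouse 2, its whole 2001 bp inside runs in both mice. Gm20109 and E230001N04Rik held 26 each in mouse 1, and 20 and 19 in mouse 2. Gm36445 had 22 and 19, and BC043934, whose signals were only 2.74 and 4.62, had 21 and 19.

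The open share rose with CpG content. The observed over expected CpG ratio of a region had a median of 0.208 over members and 0.486 over protein-coding promoters. In 5 equal groups of members, from the CpG-poorest to the CpG-richest, 2.55%, 5.77%, 9.32%, 11.1% and 26.9% were open in both mice. Below a ratio of 0.2, 98 of 2115 members were open (4.63%), a share like that of protein-coding promoters in that class (4.93%). From 0.2 to 0.4 the shares were 13.2% and 25.9%, from 0.4 to 0.6 30.5% and 72.5%, and from 0.6 to 0.8 67.2% (41 of 61) and 85.2%. At 0.8 and above 8 of 10 members were open. Within the same 5 classes, median signals of open regions in mouse 1 were 1.30, 1.24, 2.34, 4.33 and 7.25 at members. At protein-coding promoters they were 1.61, 2.21, 4.60, 6.08 and 6.01. In mouse 2 they were 1.49, 1.72, 2.92, 6.49 and 20.5 at members, and 1.75, 2.88, 9.05, 14.5 and 16.6 at protein-coding promoters. Members were lower in each class except the highest, which held 8 open members. If each CpG class of members had been open as often as protein-coding promoters of that class, 19.8% of members would have been open in both mice, against the 11.1% observed and the 52.9% of protein-coding promoters.

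**Figure D3:**
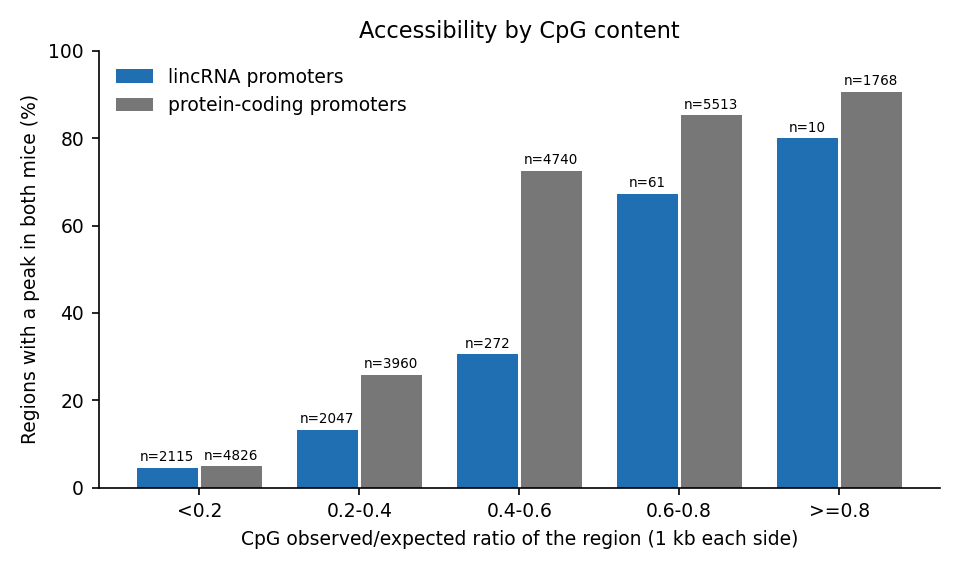
Share of regions with a peak in both mice (y axis, percent) in 5 classes of observed over expected CpG (x axis), for lincRNA promoters and protein-coding promoters; n above each bar is the number of regions. The share rises with CpG in both, and the gap is widest from 0.4 to 0.6, at 30.5% against 72.5%.

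Because CpG-poor members are so many, they made up most of the open ones. Regions with a ratio under 0.4 were 92.4% of members and 369 of the 501 open in both mice (73.7%), whereas among open protein-coding promoters 11.5% were so poor. Among the strongest were Gm5533 (near Lbr) with 15.6 and 23.5, 4930580E04Rik (near Kmt2e) with 17.2 and 19.6, BC028471 with 15.3 and 15.9, and Gm27162 (chr9:32904937-32928966), whose nearest protein-coding start is that of the lymphocyte factor gene Ets1 at 232.6 kb, with 14.7 and 15.5. At the other end, the most CpG-rich members with no peak and no run were AY036118, Gm10685, Gm9979 (24.9 kb from the epithelial factor gene Tfap2a), Gm35279 and 4930557F10Rik, with ratios of 1.03, 0.886, 0.684, 0.683 and 0.652.

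Repeats, distance and annotation also sorted the members. Of 981 members whose 5′ base lies in repeat-masked sequence, 60 were open in both mice (6.12%), against 441 of 3524 others (12.5%). The difference was present among CpG-poor members (5.29% and 9.86%) and among those with a ratio of 0.4 or more (16.4% and 44.4%). None of 99 members with 80% or more of the region masked had a peak in either mouse. Shares fell with masking at protein-coding genes too. Of those, 40.3% with a masked 5′ base and 54.1% of the others were open in both mice. With 80% or more masked, 2 of 66 protein-coding genes were (3.03%). How reads in repeats were placed was not tested. With distance from the nearest protein-coding start the open share fell from 17.9% at 5 to 10 kb, through 17.1%, 15.3% and 11.1%, to 5.88% beyond 100 kb. Members upstream of that start were open in 12.5% (same strand) and 11.5% (opposite strand) of cases, and members downstream in 10.7% and 9.30%. Genes with a given name were open in 20 of 79 cases (25.3%), Gm models in 9.78% and Rik clones in 13.2%. Transcripts with the best support level had 12.9% open, and those with level 4 or 5 had 6.78%. Chromosome 17 had the highest share, 48 of 199 (24.1%), and chromosome 8 the lowest, 14 of 306 (4.58%).

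Members near genes of the T-lineage were open at a higher share than all members, a description without a test. As a check of the tissue label, all 10 thymocyte marker promoters had a peak in both mice, as did 0 of 4 B-cell, 0 of 4 hepatocyte, 1 of 5 epithelial, 1 of 4 myeloid, 1 of 4 muscle and 1 of 3 erythroid ones. Within 100 kb of the start of any of 71 listed T-lineage genes lay 44 members, of which 18 were open in mouse 1 (40.9%), 20 in mouse 2 (45.5%) and 17 in both (38.6%). Within 100 kb of 44 genes of other tissues lay 33 members, of which 3 were open in both (9.09%). Both gene lists were chosen with earlier results of these data known. The T-lineage share was 52.0% (13 of 25) within 50 kb and 26.9% (25 of 93) within 250 kb. These members were not richer in CpG, with a median ratio of 0.220 against 0.208 over all members, but they lay closer to protein-coding starts, at a median of 33.9 kb against 71.5 kb.

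Several loci held more than 1 open member. At the genes of the CD8 co-receptor, Gm44175 lies inside Gm44174 on the opposite strand. Gm44174 (chr6:71353035-71373284, 20.4 kb from Cd8a) had 9.18 in mouse 1 and 10.4 in mouse 2, and Gm44175 (12.6 kb from Cd8a) had 5.16 and 4.87. Gm44110 (16.7 kb from Cd8b1) had 3.69 and 4.16. At Cd69, an early activation marker also made by maturing thymocytes, Gm47861 and 2310001H17Rik shared the peak of 9.12 and 16.3. Within 100 kb of Myb, needed for early thymocyte growth, 3 of 4 members were open, led by Gm33728 with 8.90 and 9.83 and Gm48189 with 5.87 and 10.4. Both lie nearer to another protein-coding start. Gm33728 is 91.1 kb from Myb and 43.9 kb from Hbs1l, and Gm48189 is 46.2 kb from Myb and 30.7 kb from Ahi1. Gm26551 (chr11:51949882-52269514), 13.1 kb from Tcf7, the gene of TCF-1, had 6.25 and 10.8. Gm11579 (chr1:60776665-60781834), 35.4 kb from the co-stimulatory receptor gene Cd28, had 6.04 and 4.61, and AC161258.2, 49.4 kb from the chromatin organiser gene Satb1, had 4.86 and 2.72. In contrast, none of 4 members near Id2 and none of 4 near Egr2, a gene induced by T-cell receptor signals, had a peak in either mouse. Among the members named here, Gm11579, Gm44175 and AC161258.2 had the lower signal in mouse 2.

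Footprints were fewer at members, and so were the run bases that can hold them. An open member region held a median of 5 footprints in mouse 1 and 4 in mouse 2, against 10 in both at protein-coding promoters. In mouse 1 13 open members (2.43%) held none, and in mouse 2 8 (1.30%). These shares were 0.504% and 0.429% at open protein-coding promoters, and 0.898% and 0.837% over all open autosomal genes. By CpG class, from the poorest to the richest, the medians in mouse 1 were 3, 4, 7, 10 and 13.5 at members. At protein-coding promoters they were 4, 6, 9, 11 and 14. In mouse 2 they were 4, 4, 7, 10 and 12 at members, against 4, 5, 9, 11 and 15. Per 100 run bases the numbers were close, 0.855 and 0.873 at members and 0.864 and 0.948 at protein-coding promoters. Of the footprints at members open in both mice, 59.0% of those in mouse 1 overlapped one in mouse 2, and 56.3% the other way, against 67.9% and 62.3% at protein-coding promoters.

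At member peaks the GC box, RUNX, TCF/LEF, E-box, ETS and CTCF motifs each had a share between those at protein-coding promoters and at distal peaks, and AP-1 had a share above both. Motifs were searched on both strands in the 200 bp at the centre of the 483 distinct strongest peaks of mouse 1 at members open in both mice. The GC box (GGGCGG) was present at 24.8%, against 62.1% at protein-coding promoters and 11.8% at the 16615 distal shared peaks. RUNX (TGTGGT) was present at 19.7%, against 7.92% and 24.9%, and TCF/LEF (CTTTGA) at 15.3%, against 6.54% and 16.8%. The E-box (CAGCTG or CAGGTG) was present at 38.1%, against 23.9% and 47.7%, and ETS (CCGGAA) at 14.1%, against 26.3% and 6.52%. The CTCF motif, searched by its consensus, was present at 7.04% (34 peaks), against 1.02% and 9.52%. In 32 of those 34 peaks it lay in footprints of both mice. The other sets were alike in this, with 89.1% of matched peaks at distal peaks. At protein-coding promoters 0.921% of all peaks held a CTCF match in footprints of both mice, of the 1.02% with a match. AP-1 (TGACTCA) was present at 6.42% (31 peaks), against 1.68% and 5.25%, and in none of the 31 did it lie in footprints of both mice. That share was also low in the other sets, 10.4% of matched peaks at protein-coding promoters and 5.73% at distal peaks. A CTCF match can overlap a GC box, and a peak can hold several motifs.

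The 2 CpG classes of members differed in their motifs. Among the 128 peaks of members with a CpG ratio of 0.4 or more, 57.0% held a GC box, 24.2% ETS, 10.9% RUNX, 7.03% TCF/LEF and 3.91% CTCF. Among the 355 peaks of poorer members the shares were 13.2%, 10.4%, 22.8%, 18.3% and 8.17%. At CpG-poor protein-coding promoters they were 35.5%, 15.1%, 16.2%, 9.63% and 3.43%. In 200 bp centred on the 5′ end of all 51229 autosomal genes, open or not, the same motifs were present at 21.2%, 8.98%, 12.3%, 11.1% and 0.338%, and over all 4505 members at 6.57%, 5.26%, 14.5%, 13.6% and 0.311%. There the E-box was present at 24.9% of all genes and 29.3% of members, and AP-1 at 3.03% and 5.28%. The windows differ in base composition. Median GC was 53.0% at CpG-poor members, 62.2% at the richer ones, 57.0% at CpG-poor protein-coding promoters and 52.5% at distal peaks. The share of a GC-rich motif therefore follows the composition in part by construction. A TATA box (TATAAA) starting 20 to 40 bp upstream of the annotated 5′ end was present at 2 of 501 members open in both mice (0.399%) and at 66 of 3855 open in neither (1.71%). Protein-coding genes differed in the same direction, with 82 of 11003 (0.745%) and 410 of 8367 (4.90%).

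**Figure D4:**
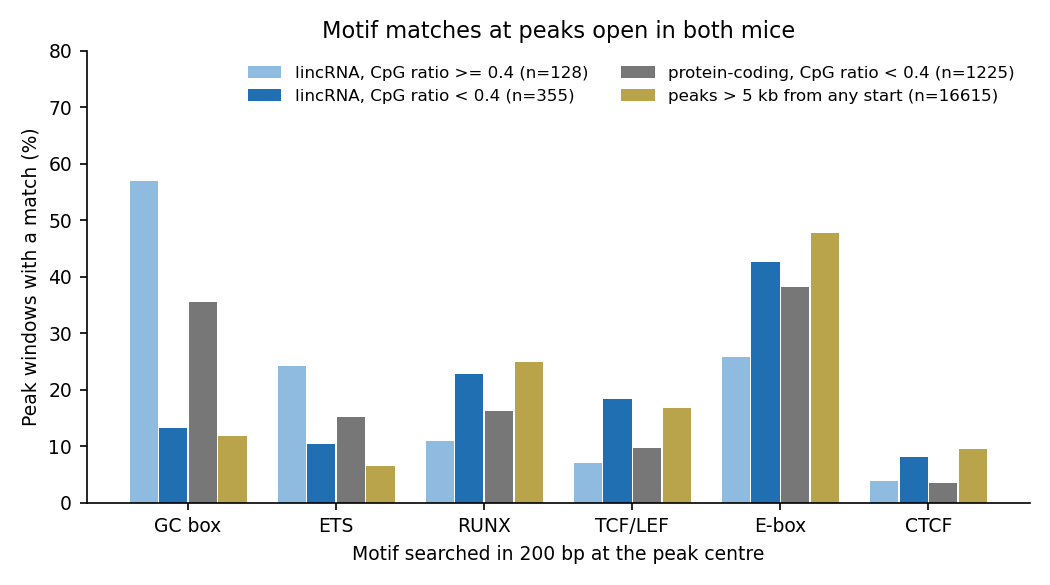
Share of 200 bp peak windows with a match to each motif (y axis, percent; x axis, motif) at CpG-rich and CpG-poor lincRNA promoters, CpG-poor protein-coding promoters and shared peaks more than 5 kb from any start; n is the number of peaks. CpG-poor lincRNA peaks stand closer to the distal peaks than to CpG-poor protein-coding promoters for each motif shown except the E-box, for example at 22.8%, 24.9% and 16.2% for RUNX. Median window GC in the same order was 53.0%, 52.5% and 57.0%, and the sets were not matched for it.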

How the data were processed

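DNase-seq peaks, cut-rate runs and footprints of thymus from 2 mice were used as the authors deposited them, on mm10 per the labels; aligner and callers not given in the sources used here. Signal is the peak height that the authors deposited, scaled for depth; its scale has no stated name. The p-value column of the deposited cut-rate lists is an FDR listed only below 0.05. Footprint lists carry a constant, so positions alone were used. The shorter of the 2 deposited peak lists was used (59484 peaks in mouse 1 and 72913 in mouse 2), the longer being an alternative. Read depth was not used and is unknown here.

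A region was called open where a peak overlapped it by at least 1 bp. Touching runs were merged. Gene types and starts came from GENCODE M21, and CpG ratios, masked shares and motifs from the GRCm38 sequence (python 3.11.15, pandas 2.3.3, pysam 0.24.0, bedtools 2.31.1). Interval counts were tested on simulated data. Members and lists were chosen with earlier results of these data known. Named members are those on 4 name lists, the 10 strongest, the 5 strongest open in each mouse alone, the 5 with most footprints, the 10 strongest near T-lineage genes, and the CpG-rich closed and CpG-poor open extremes (5 each, of which 1 is not reported here); 4632415L05Rik and Gm15340 were chosen by motif after their values were seen. There is 1 group, so all values are descriptions without tests. Alternatives covered the peak list, region width, distance rule, start definition, FDR and each mouse alone.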

Additional observations from a re-analysis of the deposited data

How the results depend on the processing

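The deficit against protein-coding promoters, the CpG difference and the log2 ratio of the mice kept their sign under every alternative run for them. The counts, the median signal, the footprint median and the T-lineage share cannot change sign, so for them only the size was compared. The 501 members open in both mice became 280 with the stronger 50% of peaks only, and lay between 393 and 667 under the others, with 536 and 615 in mouse 2 or mouse 1 left out; leaving out Gm42418, AY036118 and Gm39556, an alternative chosen after seeing the data, gave 500. The deficit against protein-coding promoters of 41.8 percentage points (written as -41.8) was -45.5 when any annotated transcript start counted and between -45.7 and -41.5 with a single mouse. With the longer peak list the median signal of 1.68 (mean of the mice) became 1.03, the median of 4.5 footprints became 3, the CpG-richest of 5 groups exceeded the poorest by 28.2 rather than 24.3 percentage points, 45.5% of members near T-lineage genes were open, and the median log2 ratio of the mice was 0.57. With 500 bp on each side that ratio was 0.65, and with 2500 bp it was 0.71, the median footprint number 5.5 and the T-lineage share 45.5%. Counting only footprints wholly inside a peak gave a median of 3.5. With a single mouse the CpG difference ran from 24.9 to 29.6 points and the T-lineage share from 40.9% to 45.5%; within 50 kb and 250 kb that share was 52.0% and 26.9%. Leaving aside the 3 alternatives of the ratio, which has no spread to judge them by, 39 of 53 stayed within 1.5 times the count or 1 SD of the mice, and 14 moved further. The SD rests on 2 animals. For the median signal and the footprint median, leaving out 1 mouse cannot move the mean beyond that SD. Those cases count among the 39 by construction. No paired analysis was possible because the mice form a single group. Missing peaks show only that none was listed at the depth of these libraries.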

Other observations

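Gm39556 (chr15:74929437-74936316, 25.6 kb from the thymocyte surface gene Ly6e) had the largest difference in run bases between the mice. In mouse 1 all 2001 bases of its region lay in runs, with 6 peaks but no footprint, as part of a continuous run of 11.6 kb (chr15:74922373-74933981) with 23 peaks and 53 footprints. That was among the 2 runs longer than 11 kb in mouse 1. In mouse 2 the region held no run, no peak and no peak of the longer list. Within 10 kb on either side, mouse 1 had 38 peaks and mouse 2 had 8.

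Gm16084 lies in the gene-poor stretch beyond Bcl11b, a factor gene that T-lineage commitment requires, 843.4 kb from its start, and was open with signals of 13.8 in mouse 1 and 16.1 in mouse 2. The runs over it measured 1.17 kb and 3.48 kb, with 13 and 23 footprints. It was named after its values were seen. 4833407H14Rik (chr19), which starts near Mirt1, had 5 peaks in mouse 2, the strongest at 1.13, and none in mouse 1, where it held 298 run bases against 1770.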
